A study of Homo sapiens with 6 samples.

Results

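10 members of the BCL2 family were followed in RNA-seq read counts from H2122, a human lung cancer cell line. They are the 4 pro-survival genes BCL2, BCL2L1, MCL1 and BCL2A1 and the 6 BH3-only genes BIK, HRK, BBC3, PMAIP1, BCL2L11 and BMF. The members were taken by gene symbol, and all 10 were found among the 59050 symbols counted. All 10 passed the filter on low counts, as did 17809 genes in total. The 3 knockout libraries are labelled SMARCA4 KO. SMARCA4 encodes a motor subunit of SWI/SNF complexes, which move nucleosomes, and its knockout is compared here with 3 parental libraries labelled WT. Cells of both groups received vehicle. A number in the titles, whose meaning is not given, is 1 for every knockout library and 1, 3 or 6 for the parental libraries. Whether the knockout libraries come from 1 clone, and whether replicates are separate cultures, is not stated, so the p-values reflect only how these samples vary, which may be technical.

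Proteins of this family set whether a cell starts apoptosis through its mitochondria. Pro-survival proteins hold the pore-forming effectors BAX and BAK1 in check. BH3-only proteins carry a short helix, the BH3 domain, that binds the groove of the pro-survival proteins and, for some members, activates the effectors directly. Many carcinomas depend on MCL1 or on the BCL-xL protein made from BCL2L1, and each BH3-only protein binds its own subset of the pro-survival proteins. Counts per gene do not separate splice forms, so BCL-xL and BCL-xS, or the forms of MCL1 and of BIM, were counted together.

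Levels below are in CPM, reads per library normalised for depth by TMM, and changes are log2 fold changes of the knockout less the parental libraries. A gene is said to have risen or fallen where the adjusted p of edgeR's quasi-likelihood test, corrected over all genes tested, was under 0.05. Gene reads ranged from 55120937 to 59917980 per library, so that 3 reads, taken as the limit of detection, correspond to 0.0497 to 0.0544 CPM. Such limits cover counting error only. SMARCA4 itself stood at 20.7, 19.3 and 24.9 CPM in the knockout against 232, 214 and 335 CPM in the parental libraries and fell (log2 fold change -3.59, SE 0.22, edgeR adjusted p = 0.000176). Parental replicate 3 stood apart from the other parental libraries, with 24.0% of the tested genes at least 2-fold away from their mean. Each result is therefore given with and without it where it matters. Of 7 tested markers of lung epithelial carcinoma cells, 5 fell (KRT19, EPCAM, CDH1, KRT7 and KRT8), beside 14.3% of all genes tested, the list's summed level lying at 3158 to 3423 CPM per knockout library and 6932 to 7701 CPM per parental library. The lung lineage markers NKX2-1 and SFTPB were too low to be tested, and the leukocyte marker PTPRC had no read in any library. Of 3 tested fibroblast markers, LUM (log2 fold change 6.18, edgeR adjusted p = 8.98e-06) and COL3A1 (5.00, 0.00562) rose and COL1A1 fell (-1.46, 0.0408). Of all genes tested, 13.3% rose and 14.3% fell. The parental values of COL3A1 rest on 4, 1 and 22 reads, and its log2 fold change was 6.78 without parental replicate 3. The list of 7 summed to 53.4 to 58.1 CPM per knockout library and 39.3 to 110.1 CPM per parental library. Of 2 tested endothelial markers CDH5 rose (2.74, edgeR adjusted p = 0.0147), beside the same 13.3%, with 4, 10 and 1 parental reads. The list of 5 lay at no more than 1.40 CPM in any library. With the replicate number as a block, the calls of KRT8, COL1A1 and CDH5 were lost. They were also lost for KRT8 without any one library other than parental replicate 3 (edgeR adjusted p up to 0.169), for COL1A1 without any one knockout library (up to 0.137) and with limma-voom (0.0545), and for CDH5 without knockout replicate 1 or 3 or parental replicate 1 (up to 0.0641). The part of these shifts in the results below was not tested.

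Among the 10 genes, 3 rose, 4 fell and 3 did not pass, against 27.6% of all genes tested that changed, 13.3% rising and 14.3% falling. The genes that rose were HRK, BCL2 and BBC3. Those that fell were BCL2A1, BMF, BIK and BCL2L11, while MCL1, BCL2L1 and PMAIP1 did not pass. Both classes therefore had members moving each way: 1 pro-survival gene rose and 1 fell, and 2 BH3-only genes rose and 3 fell. The median log2 fold change was 0.03 over the pro-survival genes and -0.95 over the BH3-only genes, beside 0.02 over all genes tested. For 8 of the 10 genes no library of one group reached the range of the other, compared with 49.8% of all genes tested. In the fit that left out parental replicate 3, 4 of the 10 passed as rising and 6 as falling, where 61.6% of all genes passed, 30.8% in each direction.

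**Figure D1:**
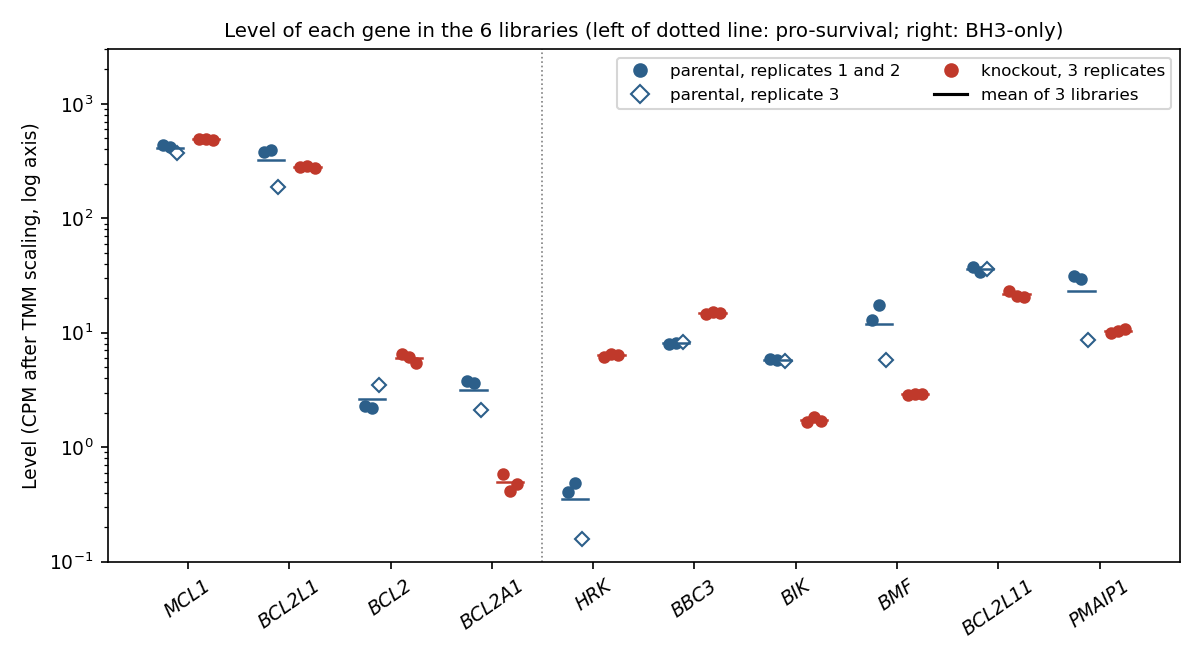
Level of each gene in every library, in CPM after TMM scaling on a log axis, with parental libraries in blue (replicate 3 as an open diamond), knockout libraries in red, and the mean of 3 libraries as a line. HRK moves from between 0.158 and 0.486 CPM to between 6.10 and 6.53 CPM, and only BCL2L1 and PMAIP1 have overlapping groups.

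HRK, which encodes the BH3-only protein harakiri, known from neuronal cell death, had the largest change of the 10 (chromosome 12, 116856144 to 116881441, minus strand; all positions from GENCODE 29 on GRCh38). The knockout libraries held 6.10, 6.53 and 6.36 CPM, the parental libraries 0.403, 0.486 and 0.158 CPM. The parental values rest on 23, 29 and 9 reads, above the limit of detection but low, and the knockout values on 345, 360 and 384 reads. The rise was 4.17 on the log2 scale (SE 0.39, edgeR adjusted p = 0.00072). Every knockout library lay above every parental one. Parental replicate 3 was the lowest, at 35.6% of the mean of the other parental libraries, and the log2 fold change was 3.78 without it.

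BBC3, which encodes PUMA, a BH3-only protein that binds all the main pro-survival proteins, also rose (chromosome 19, 47220822 to 47232766, minus strand). Parental levels of 7.95, 8.14 and 8.28 CPM compare with 14.6, 15.1 and 14.8 CPM after knockout. Both groups were tight, with SDs of 0.217 and 0.167 CPM (n = 3 each). The log2 fold change was 0.87 (SE 0.11, edgeR adjusted p = 0.00209), and parental replicate 3 did not stand apart, at 103% of the other parental libraries.

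BIK, which encodes a BH3-only protein found mainly at the endoplasmic reticulum, fell to about the same low level in every knockout library (chromosome 22, 43110748 to 43129712, plus strand). The 3 knockout levels were 1.64, 1.85 and 1.71 CPM, and the 3 parental levels 5.92, 5.73 and 5.70 CPM. The fall was -1.74 on the log2 scale (SE 0.14, edgeR adjusted p = 0.000448), the smallest adjusted p of the 10. As with BBC3, all 3 parental libraries were alike, parental replicate 3 included.

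BMF, whose product is held at the cytoskeleton by dynein light chain in attached cells, fell from scattered parental levels to an even low level (chromosome 15, 40087890 to 40108892, minus strand). The knockout libraries gave 2.88, 2.92 and 2.92 CPM and the parental ones 12.8, 17.5 and 5.73 CPM. All parental libraries lay above the knockout ones, although parental replicate 3 was at 37.8% of the mean of the other parental libraries. The log2 fold change was -2.05 (SE 0.40, edgeR adjusted p = 0.0123) and -2.43 without that library. It did not pass when a knockout library, whichever of the 3, was left out, at edgeR adjusted p = 0.057 to 0.0609, and over all alternatives the adjusted p ran from 3.56e-08 to 0.0609.

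BCL2L11, which encodes BIM, a direct activator of BAX and BAK1, fell moderately (chromosome 2, 111119378 to 111168447, plus strand). From 37.5, 33.9 and 36.2 CPM in parental cells it went to 23.1, 21.1 and 20.7 CPM after knockout. No knockout library reached the lowest parental one. The log2 fold change was -0.73 (SE 0.10, edgeR adjusted p = 0.00331). Of its merged exon bases, 10.9% are shared with the long non-coding MIR4435-2HG on the opposite strand, whose level was 29.7 ± 0.274 CPM after knockout and 24.7 ± 8.30 CPM in parental cells (SD, n = 3 each). The strand setting of the counting is not stated, so reads of these shared bases cannot be assigned to either gene with certainty.

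PMAIP1, which encodes NOXA, a BH3-only protein that binds MCL1 and BCL2A1, split the parental libraries (chromosome 18, 59899948 to 59904306, plus strand). It stood at 31.6 and 29.2 CPM in parental replicates 1 and 2 but at 8.65 CPM in parental replicate 3. The knockout libraries gave 9.92, 10.3 and 10.8 CPM, which lie between these. The groups thus overlapped, and the log2 fold change of -1.16 did not pass (SE 0.46, edgeR adjusted p = 0.116). Without parental replicate 3 it was -1.60 (SE 0.07, edgeR adjusted p = 1.28e-09), and DESeq2 on all 6 libraries also called it (-1.22, DESeq2 adjusted p = 0.0325). Over all alternatives the adjusted p ran from 1.28e-09 to 0.268.

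Among the pro-survival genes, BCL2A1, which encodes BFL1 and is best known as an NF-kB target of blood cells, fell the most (chromosome 15, 79960889 to 79971446, minus strand). Its parental levels of 3.78, 3.63 and 2.09 CPM compare with 0.583, 0.417 and 0.480 CPM after knockout. The knockout values rest on 33, 23 and 29 reads and the parental ones on 216, 217 and 119 reads. The groups did not overlap, and the log2 fold change was -2.68 (SE 0.30, edgeR adjusted p = 0.00158) and -2.95 without parental replicate 3. The 6 leukocyte markers checked summed to 0.436 to 0.729 CPM per knockout library and 1.39 to 1.88 CPM per parental library. Of the 3 tested, LYZ (log2 fold change -2.62, edgeR adjusted p = 0.00455) and CD79A (-2.51, 0.00446) fell, beside 14.3% of all genes tested. Their knockout values rest on 5, 5 and 4 reads (LYZ) and 3, 2 and 5 reads (CD79A), around the limit of detection. PTPRC was at 0 reads in every library. The part of these markers in the BCL2A1 result was not tested.

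BCL2, the founding pro-survival gene of the family, rose from a low level (chromosome 18, 63123346 to 63320128, minus strand). The knockout libraries gave 6.45, 6.08 and 5.48 CPM and the parental ones 2.29, 2.18 and 3.50 CPM, with parental replicate 3 the highest of its group. All knockout libraries lay above it. The log2 fold change was 1.18 (SE 0.23, edgeR adjusted p = 0.0118) and 1.38 without parental replicate 3. The call was lost without knockout replicate 1 (edgeR adjusted p = 0.0573) or knockout replicate 2 (0.0548), within a range of 8.44e-07 to 0.0573 over all alternatives.

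MCL1, whose short-lived protein restrains BAK1 and is bound by NOXA, spanned 374 to 497 CPM over the 6 libraries (chromosome 1, 150574551 to 150579738, minus strand). Knockout libraries held 491, 497 and 487 CPM and parental libraries 435, 419 and 374 CPM. The groups did not overlap, yet the difference of 0.27 on the log2 scale did not pass (SE 0.11, edgeR adjusted p = 0.12). Without parental replicate 3 a smaller difference of 0.16 passed (SE 0.04, edgeR adjusted p = 0.00538), and over all alternatives the adjusted p ran from 0.00538 to 0.402.

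BCL2L1, the source of BCL-xL, split the parental libraries as PMAIP1 did (chromosome 20, 31664452 to 31723989, minus strand). Parental libraries gave 380, 396 and 187 CPM, and knockout libraries 278, 285 and 277 CPM. The knockout values fell between parental replicate 3 and the other parental libraries, and the log2 fold change of -0.20 did not pass (SE 0.28, edgeR adjusted p = 0.65). Without parental replicate 3 it was -0.52 (SE 0.04, edgeR adjusted p = 4.62e-07), with a range of 4.62e-07 to 0.962 over all alternatives. Of its merged exon bases, 43% are shared with the antisense gene ABALON, itself at only 1.61 ± 0.109 CPM after knockout and 1.52 ± 0.429 CPM in parental cells (SD, n = 3 each).

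**Figure D2:**
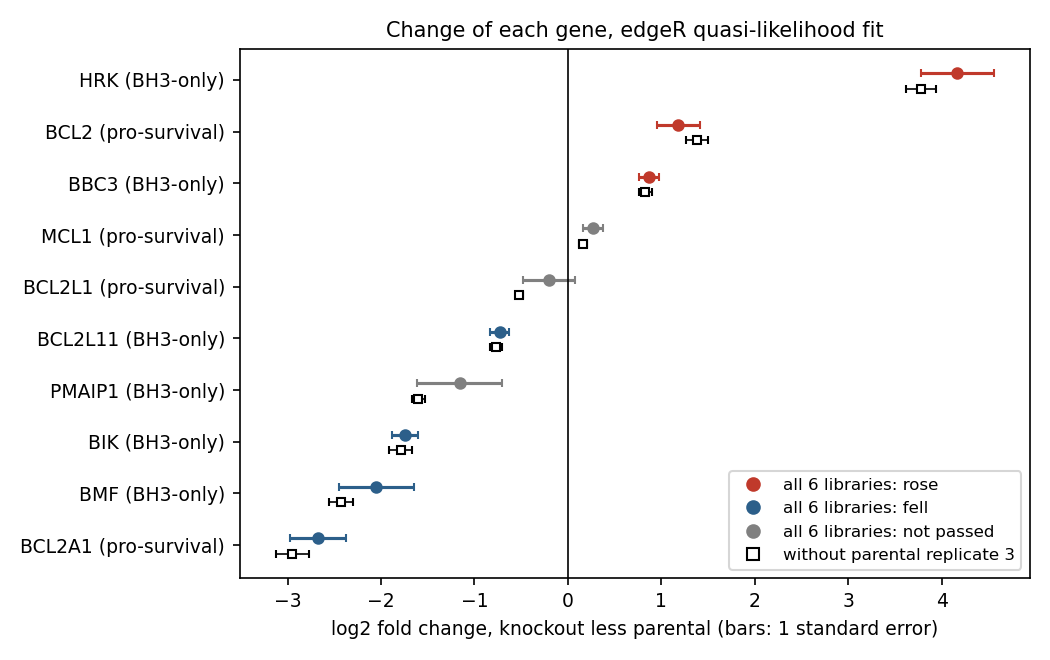
Log2 fold change of each gene, knockout less parental, from edgeR's fit with all 6 libraries (filled circles) and without parental replicate 3 (open squares), with bars of 1 standard error. Every gene keeps its sign in both fits, from HRK at 4.17 to BCL2A1 at -2.68, and the bars of BCL2L1, PMAIP1 and BMF shrink most without that library.

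The 10 genes thus differed in how even the parental libraries were. BIK, BBC3 and BCL2L11 lay within 97.9% to 103% of the other parental libraries in parental replicate 3, and MCL1 at 87.6%. BCL2L1, HRK, BMF and PMAIP1 lay at 28.5% to 48.2%, making 4 of the 10 at least 2-fold apart, where 24.0% of all tested genes were. BCL2A1 was at 56.4% and BCL2 at 157%. Within the knockout group no gene showed such a split.

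Scaling by the length of the merged exons allows a rough comparison of levels between genes. That length takes in the exons of all annotated transcripts of a gene. Which of them these cells use was not examined, so a gene with unused exons would be understated. The orders and shares below hold for that length only, unless another is named. In CPM per kb, MCL1 led in the knockout libraries at 112.5 ± 1.14 and BCL2L1 followed at 84.5 ± 1.31 (SD, n = 3 each). In the parental group they stood at 93.6 ± 7.21 and 96.8 ± 35.1, with overlapping libraries, so their order there was not resolved. The order in the knockout depends on how reads shared with ABALON were counted. Over the 1890 bases of BCL2L1 that no other gene shares, its level would be 148 ± 2.29 CPM per kb in the knockout group, above MCL1 at 113 ± 1.15. That length was tried after the data were examined. With either length, these genes made up nearly all of the summed pro-survival level. On the merged exon length, BCL2 contributed 0.238% to 0.278% of it in the knockout and 0.0846% to 0.206% in the parental libraries, and BCL2A1 0.191% to 0.271% and 1.33% to 1.60%.

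The BH3-only genes were lower per length than MCL1 and BCL2L1 in every library, and their order differed between the groups. In the knockout group the order was BBC3 at 4.66 ± 0.0683, PMAIP1 at 4.63 ± 0.201, BCL2L11 at 3.25 ± 0.191, BIK at 1.82 ± 0.112, HRK at 0.924 ± 0.0319 and BMF at 0.534 ± 0.00395 CPM per kb (SD, n = 3 each). Only the neighbours BBC3 and PMAIP1 had overlapping libraries. In the parental group the order was PMAIP1 at 10.4 ± 5.65, BIK at 6.07 ± 0.126, BCL2L11 at 5.39 ± 0.269, BBC3 at 2.56 ± 0.0525, BMF at 2.21 ± 1.09 and HRK at 0.0509 ± 0.0248 CPM per kb. There the spread of PMAIP1, from 3.87 to 14.1 CPM per kb, took in all libraries of BIK and BCL2L11, and BBC3 overlapped with BMF. Over the bases of BCL2L11 that no other gene shares, its parental level would span 5.72 to 6.32 CPM per kb. That range overlaps BIK at 5.98 to 6.21, so the parental order of BIK and BCL2L11 depends on the length used. This length, too, was tried after the data were examined. BBC3 made up 29.3% to 29.7% of the summed BH3-only level in the knockout and 8.09% to 13.7% in the parental libraries. BIK made up 11.0% to 12.2% against 20.02% to 31.5%, and HRK 5.69% to 5.98% against 0.122% to 0.236%. PMAIP1 spanned 28.4% to 30.6% in the knockout and 20.4% to 45.8% in the parental libraries.

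**Figure D3:**
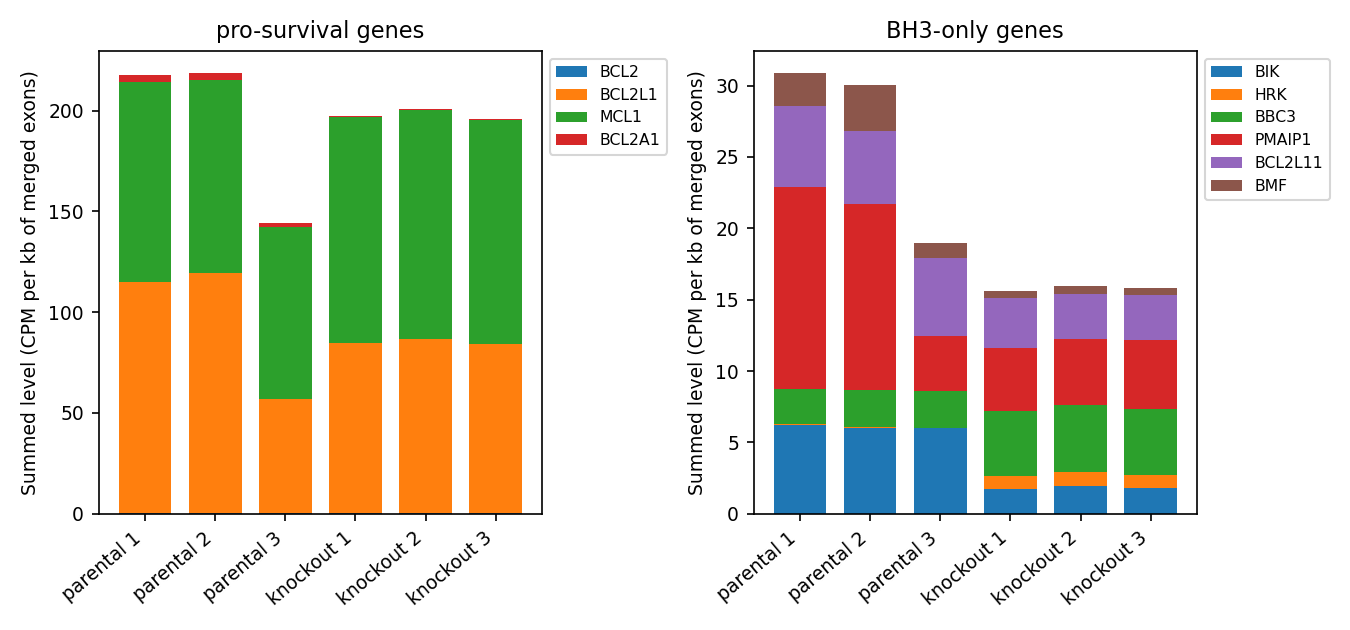
Summed level of the pro-survival genes (left) and the BH3-only genes (right) in each library, in CPM per kb of merged exons, with 1 colour per gene and both axes starting at 0. MCL1 and BCL2L1 fill the left bars, and the right bars stand at 15.6 to 15.95 in the knockout libraries and at 30.9, 30.0 and 19.0 in the parental ones.

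Promoter sequences are shown for the 2 genes with the largest changes, HRK and BCL2A1, and for 1 further gene that rose, BBC3, and 1 that fell, BCL2L11. RefSeq windows (GRCh38.p14) matched 8 of the 10 members, while BIK and MCL1 had none and were not examined. The 250 bases before the RefSeq start are printed 5′ to 3′ on the gene's strand. The windows are chr12:116881442-116881691 (minus strand) for HRK, chr19:47232668-47232917 (minus) for BBC3, chr15:79971197-79971446 (minus) for BCL2A1 and chr2:111120664-111120913 (plus) for BCL2L11. Capitals mark matches, on either strand, to any of 5 motifs: TGANTCA (the AP-1 site), TGACGTCA (the cyclic AMP response element), CACCTG (an E-box bound by ZEB and SNAIL factors), TATAAA (the TATA box) and GGGCGG (the GC box).
HRK: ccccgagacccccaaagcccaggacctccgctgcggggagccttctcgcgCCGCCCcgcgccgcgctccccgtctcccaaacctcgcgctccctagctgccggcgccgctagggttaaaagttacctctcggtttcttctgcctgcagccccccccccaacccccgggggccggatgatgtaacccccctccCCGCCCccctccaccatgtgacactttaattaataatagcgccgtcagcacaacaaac
BBC3: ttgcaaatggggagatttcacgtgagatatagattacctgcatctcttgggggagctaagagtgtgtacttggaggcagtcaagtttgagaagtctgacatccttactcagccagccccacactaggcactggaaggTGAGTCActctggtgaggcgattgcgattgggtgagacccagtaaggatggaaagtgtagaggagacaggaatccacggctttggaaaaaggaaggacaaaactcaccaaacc
BCL2A1: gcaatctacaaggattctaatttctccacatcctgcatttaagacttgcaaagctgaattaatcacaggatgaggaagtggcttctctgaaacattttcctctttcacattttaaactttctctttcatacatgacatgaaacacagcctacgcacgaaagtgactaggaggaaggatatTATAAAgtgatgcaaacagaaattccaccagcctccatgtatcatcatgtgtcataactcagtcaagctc
BCL2L11: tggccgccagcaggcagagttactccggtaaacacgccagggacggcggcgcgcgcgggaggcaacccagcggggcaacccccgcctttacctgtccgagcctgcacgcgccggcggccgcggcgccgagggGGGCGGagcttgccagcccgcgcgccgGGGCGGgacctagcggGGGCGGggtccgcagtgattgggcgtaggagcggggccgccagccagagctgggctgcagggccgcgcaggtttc
The windows of HRK and BCL2L11 hold 66.4% and 76.8% G or C, with observed-to-expected CpG ratios of 0.918 and 0.935. Those of BCL2A1 (38.8% and 0.219) and BBC3 (49.2% and 0.278) are lower on both. BCL2 stands at 70% and 0.793 and PMAIP1 at 72.8% and 1.09. The windows of BMF stand at 65.2% and 0.98 and at 48.8% and 0. Those of BCL2L1 stand at 50% and 1.09 and at 60.4% and 0.527. The part of base composition in the direction of change was not tested. The median over 35116 windows of the same length was 58% G or C and a ratio of 0.558.

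GGGCGG was found in windows of HRK, BCL2L11, PMAIP1 and BMF, and in 42.6% of all windows. TATAAA was found in windows of BCL2A1 and BCL2L1, against 10.7% of all windows. Among the members with a window, TGANTCA was found for BBC3 alone (6.57% of all windows). CACCTG was found for BMF alone (17.5%), in the second of its 2 windows, and TGACGTCA for none of these members (1.65%). The start after that second BMF window was not found in the GENCODE 29 transcripts of BMF. BCL2 had none of the 5 motifs in its window. A match describes the letters of this window and is no evidence of a bound factor. BCL2L1 and BMF have 2 windows each, and genes such as BBC3 have further starts that these windows do not cover.

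Of 9 tested genes in the rest of the family, 1 fell, 8 did not pass and none rose, at a median log2 fold change of -0.17, beside 27.6% of all genes tested that changed. BAK1, which encodes a pore-forming effector, fell from 33.2, 36.0 and 40.3 CPM in the parental to 21.5, 20.7 and 22.0 CPM in the knockout libraries (log2 fold change -0.77, SE 0.11, edgeR adjusted p = 0.00385). The libraries of the groups did not overlap. BAX, the other main effector, gave 78.1, 79.5 and 85.8 CPM after knockout and 76.6, 77.2 and 118 CPM in parental cells (-0.16, edgeR adjusted p = 0.581). BOK, another effector-like gene, gave a log2 fold change of -0.08, BAD and BID, both BH3-only, -0.12 and -0.17, and BCL2L2, the pro-survival gene of BCL-w, -0.18. BCL2L12, BCL2L13 and BCL2L15 gave -0.60, -0.16 and -0.90. BCL2L10 and BCL2L14 were too low to be tested. None of these 8 passed, at edgeR adjusted p of 0.106 to 0.733. For 3 of them a value past the threshold appeared without parental replicate 3, where 61.6% of all genes passed: BCL2L2 at -0.53, BCL2L13 at -0.21 and BCL2L15 at -0.50, while BAX gave 0.03. BCL2L12 turned from -0.60 to 0.18 (edgeR adjusted p = 0.0582). Parental replicate 3 held 34.0 CPM of BCL2L12 against 9.81 and 10.5 CPM in the other parental libraries. DESeq2 on all 6 libraries also called BCL2L15 (-0.95, DESeq2 adjusted p = 0.0316).

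**Figure D4:**
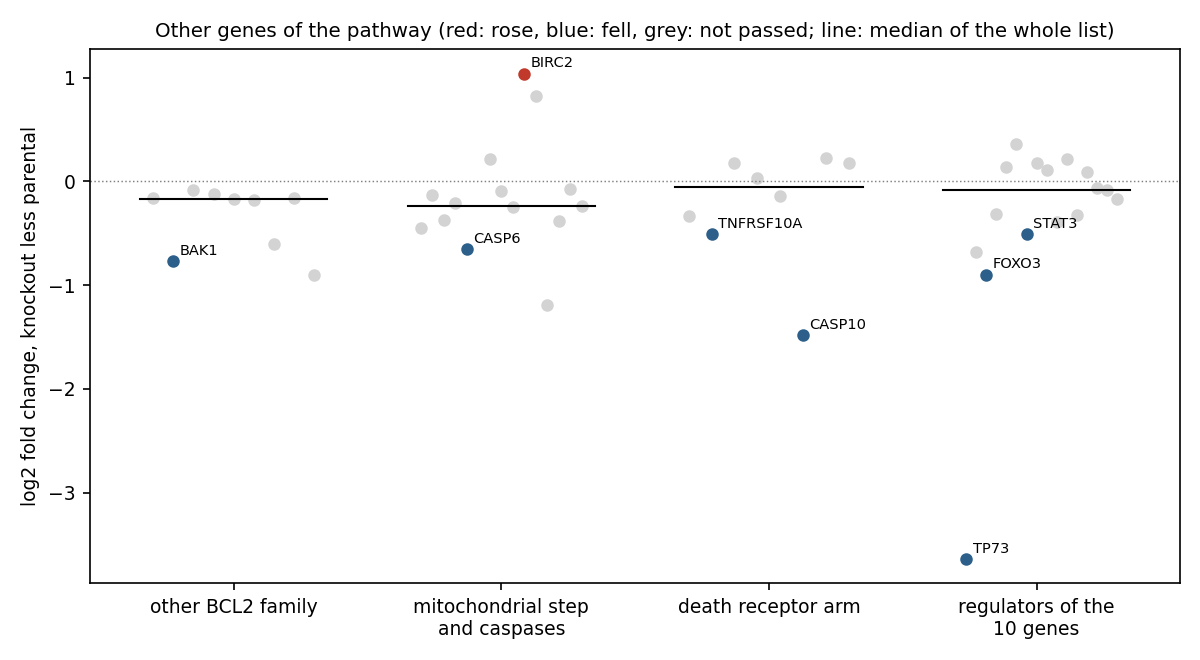
Log2 fold change, knockout less parental, of genes in 4 lists around the family, with red for genes that rose, blue for genes that fell, grey for those that did not pass, and a line at each list's median. List medians lie between -0.24 and -0.05, and TP73 at -3.64 is the only labelled gene below -2.

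Further along the mitochondrial route, 1 of 15 tested genes rose, 2 fell and 12 did not pass (median -0.24), where 27.6% of all genes tested changed. BIRC2, which encodes the inhibitor of apoptosis protein cIAP1, rose from 60.3 ± 21.6 to 124 ± 2.36 CPM (1.04, SE 0.28, edgeR adjusted p = 0.0366). BIRC2 did not pass in fits that omitted a knockout library or parental replicate 2 (0.0624 to 0.107), or with the replicate block (0.0529). Without parental replicate 3 its log2 fold change was 0.72. The executioner caspase gene CASP6 fell (-0.65, SE 0.13, edgeR adjusted p = 0.0114) but did not pass in fits omitting a knockout library (0.0618 to 0.0687) or with the block (0.0544). In the death receptor arm, which joins this route through BID, 2 of 8 fell, none rose and 6 did not pass (median -0.05), beside the same 27.6%. These were the initiator caspase gene CASP10 (-1.48, edgeR adjusted p = 0.00608) and the TRAIL receptor gene TNFRSF10A (-0.51, edgeR adjusted p = 0.00839), the latter past the threshold neither in fits omitting a knockout library (0.0505 to 0.0594) nor with the block (0.0557). Without parental replicate 3, 5 rose and 5 fell in the first list, and none rose and 4 fell in the second, where 61.6% of all genes passed.

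Among 17 regulators of the 10 genes, 1 rose, 3 fell and 13 did not pass (median -0.08), beside the same 27.6%. TP73, which encodes the transcription factor p73, fell from 1.25 ± 0.376 to 0.0975 ± 0.0447 CPM (-3.64, SE 0.40, edgeR adjusted p = 0.00139). Its knockout values rest on 4, 4 and 9 reads, near the limit of detection, and its parental values on 66, 56 and 95 reads. STAT3 fell by 0.51 on the log2 scale (edgeR adjusted p = 0.0422), and so did FOXO3 by 0.90 (edgeR adjusted p = 0.0423), a regulator of BIM and PUMA named after its values were seen. Both calls were lost without any one library other than parental replicate 3 and with the block, at up to 0.161 for STAT3 and 0.145 for FOXO3. The FOXO3 call was also lost with upper-quartile factors (0.0593), the stricter filter (0.0509) and limma-voom (0.0568). Both genes passed without parental replicate 3, STAT3 at -0.41 (edgeR adjusted p = 3.44e-06) and FOXO3 at -1.19 (edgeR adjusted p = 3.87e-10). Leaving out parental replicate 3 gave 2 rising and 9 falling, again where 61.6% of all genes passed.

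Genes whose pattern over the 6 libraries was most like that of a member were sought for HRK, the called member with the largest change, and BCL2L11, the called member with the highest mean CPM. Likeness was the Euclidean distance between log2 CPM values centred over the libraries, among the genes with reads in all 6. Nearest to HRK were the long non-coding RNA gene GIHCG (distance 0.272), ZEB1, which encodes a repressor of epithelial genes (0.329), and EDAR, the ectodysplasin receptor gene (0.385). Nearest to BCL2L11 were FAM57A (0.0855), ZHX3 (0.115) and MREG (0.117). GIHCG rose by 4.36, ZEB1 by 4.43 and EDAR by 4.28 on the log2 scale, and the 3 genes near BCL2L11 changed by -0.68, -0.66 and -0.72. As these genes were chosen by their pattern over the same 6 libraries, similar fold changes follow from that choice. With 0.5 CPM added before the log, a choice made after the data were examined, the genes nearest to HRK were instead LGALS1, BNC2 and TMEM136, so those names depend on that constant. FAM57A and ZHX3 were nearest to BCL2L11 in both.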

How the data were processed

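RNA-seq reads of 6 libraries were aligned with TopHat2 2.1.1 and counted with HTSeq 0.11.0 on hg38, as the submitters' processing notes name these tools and this build; for their settings, the annotation release and the strand mode, the sources used here give nothing. The deposited values are raw read counts per gene symbol, in 1 file per library. The 5 classes of unassigned reads, 13.8% to 15.3% of each file, entered neither library sizes nor tests.

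Counts were filtered with filterByExpr, then TMM factors were computed, and groups were compared in R 4.3.3 by the two-sided robust quasi-likelihood test of edgeR 4.0.16, with no other term. Benjamini-Hochberg adjustment ran over 17809 genes, and calls were made under 0.05. Exon lengths, positions and overlaps are from GENCODE 29. Each gene was also tested with DESeq2 1.42.0, with voom in limma 3.58.1, with factors by RLE or upper quartile, without a filter, with a minimum of 1 CPM in 3 libraries, with replicate number as a block, and leaving out each library. Whether replicate numbers pair the libraries is not stated.

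The members and lists were chosen with earlier results of these data known. Named genes were SMARCA4, the 10 members, the tested rest of the family, and from each other list up to 2 rising and 2 falling genes with the smallest adjusted p. FOXO3 and the marker genes that passed were named after their values were seen. The results of 1 list and 2 other genes are not reported here, though they remain in the counts.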

Additional observations from a re-analysis of the deposited data

How the results depend on the processing

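For the 10 genes, 130 log2 fold changes were computed under the 13 alternatives, and none changed sign. Of these, 121 stayed on their side of the threshold, 5 lost a call (BCL2 and BMF, each without a knockout library) and 4 gained one (BCL2L1, MCL1 and PMAIP1). The count of members rising ranged from 2 to 4 and of members falling from 3 to 6 when 1 library was left out. For 17 other named genes, 185 of 220 values kept their direction and side, 28 lost a call and 4 gained one. The other 3 changed sign, none of them called in either fit: BAX to 0.03 and BCL2L12 to 0.18 without parental replicate 3, and BCL2L2 to 0.05 without parental replicate 2. With 1 library left out, BAX ranged from -0.27 to 0.03, BCL2L12 from -0.90 to 0.18 and BCL2L2 from -0.53 to 0.05. For 11 marker genes, 125 of 140 values stayed and 15 lost a call. Over all genes, 4912 changed, 2692 to 11325 with 1 library left out, the highest without parental replicate 3. Against 2365 rising and 2547 falling, no filter gave 1871 and 2833, RLE factors 2138 and 2792, and upper-quartile factors 2602 and 2375. These settings shifted the median gene by at most 0.063 on the log2 scale.

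With the replicate number as a block, 3040 genes changed, and the same 7 of the 10 genes were called. The deviations of libraries with the same number correlated at -0.08, 0 and -0.1, and those with different numbers at -0.22 to 0.19. These values give no sign of pairing, but with 3 libraries per group they cannot exclude it. Low parental reads of HRK, COL3A1 and CDH5 and low knockout reads of BCL2A1, TP73, LYZ and CD79A limit the precision of these fold changes.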
